A study of Mus musculus with 6 samples.

Results

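The genes described here are 34 genes of fatty acid synthesis and triglyceride assembly, chosen by name for their known roles and followed by identifier in a table of 57180 genes. They were compared, step by step, between primary hepatocytes of control mice and of mice with a liver-specific knockout of STING. All 34 were found in the table, and 32 had enough reads to be tested. Hepatocytes were isolated by collagenase perfusion from male mice, given in the study's reporting summary as C57BL/6 mice of 8 to 10 weeks. The control group (genotype LOXP, named Loxp here, n = 3 libraries) came from STING floxed mice, and the knockout group (named LKO, n = 3 libraries) from STING floxed mice crossed with Albumin-Cre mice, in which Cre recombinase is expressed in hepatocytes. All 6 cultures were kept in MEM alpha medium with dexamethasone and serum and exposed for 24 h to the saturated fatty acid palmitate at 0.1 mM. No untreated culture was part of the comparison, so every value describes hepatocytes under palmitate. Whether the controls carried Cre is not given in the sources used here, and without it loss of STING and presence of Cre cannot be told apart. Nothing in the sources used here says that the 3 libraries of a group came from separate mice, and the p-values may then measure technical spread only.

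Liver makes fatty acids from surplus carbon. Citrate leaves the mitochondria and is cleaved to acetyl-CoA, acetyl-CoA carboxylase turns this into malonyl-CoA, and fatty acid synthase builds palmitate from malonyl-CoA with NADPH as the reductant. Elongases and desaturases then lengthen and unsaturate the chains, and acyltransferases and phosphatases place them on glycerol to give triglyceride, which hepatocytes store in droplets or secrete in lipoproteins. Many of these genes are classical targets of SREBP-1c, the insulin-responsive factor encoded by *Srebf1*, and of ChREBP, the carbohydrate-responsive factor encoded by *Mlxipl*.

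Libraries held between 14726983 and 18536985 counted reads, of which the 34 genes took from 0.366% to 0.390%. *Sting1* itself had 19, 16 and 23 reads in the Loxp libraries and 24, 23 and 15 in the LKO libraries (log2 fold change -0.08, SE 0.30, edgeR adjusted p = 0.883). These reads show no fall of *Sting1* RNA in LKO beyond this error. Which exons the floxed allele loses is not given in the sources used here. The level does not separate the groups, and LKO means the libraries labelled as such. The study also measured *sting* by RT-PCR in hepatocytes of both genotypes, which is not analysed here, and the sources used here do not say whether those samples include the sequenced ones. The cells carried the markers of hepatocytes, but at unequal levels. Of 19 hepatocyte markers tested, 15 were lower in LKO with an adjusted p under 0.05, beside 11.6% of all genes tested. The other 4 (*Apoa1*, *Apob*, *Cyp2e1* and *Cebpa*) did not pass, and the median log2 fold change of the 19 was -0.44. Levels are given as FPKM (fragments counted per length of the gene and scaled to the depth of the library). The summed level of the 19 was 14800 to 16070 FPKM in Loxp and 11282 to 11430 FPKM in LKO. Much of that sum was *Alb*, at means of 7670 and 6541 FPKM, and *Hpx*, at 3802 and 1548 FPKM. The summed level of 17 macrophage markers was 108 to 118 FPKM in Loxp and 89.2 to 99.0 FPKM in LKO. Of 15 tested, 3 were lower (*Cd68*, *Mpeg1* and *Itgam*), beside 11.6% of all genes tested, and 12 did not pass. *Cd68* went from a mean of 37.5 to 21.1 FPKM, while *Cd14* stood at 36.8 and 36.9 FPKM. Of the 15 log2 fold changes, 10 were negative and 5 positive. The summed level of 8 cholangiocyte markers was 124 to 145 FPKM in Loxp and 65.7 to 77.0 FPKM in LKO. Most of that sum was *Cldn4*, at means of 111 and 55.8 FPKM. Of 5 tested, 3 were lower (*Cldn4*, *Sox9* and *Spp1*) and 1 higher (*Krt19*), beside 11.6% and 11.5% of all genes tested. *Krt7* and *Epcam* were too low to test. Of the endothelial markers 1 of 12 tested was lower, none of 10 stellate cell markers passed the edgeR test (1 at an unadjusted p under 0.05), and the markers of lymphocytes, neutrophils and adipocytes had 4, 13 and 4 reads in all libraries together. The part of these shifts in the results was not tested, and in bulk RNA fewer cells of a type and less RNA per cell cannot be told apart.

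Lipogenic genes moved in both directions. With an adjusted p under 0.05, 7 of the 32 tested genes were higher in LKO (*Fasn*, *Aacs*, *Acly*, *Gpat4*, *Slc25a1*, *Fads2* and *Me1*) and 7 were lower (*Lpin2*, *Scd1*, *Acacb*, *Gpam*, *Dgat2*, *Acss2* and *Elovl2*). The calls come from the quasi-likelihood test of edgeR, with p-values adjusted by the Benjamini-Hochberg method over all 14151 genes tested, and the same rule called 11.5% of all genes higher and 11.6% lower, 23.1% in all, against 14 of 32 members (43.8%). The members were mostly well expressed. Of the 30 tested members with a mean above 1 FPKM in a group, 14 were called (46.7%), against 26.2% of the 11102 tested genes above that level, a background added after the data had been seen. The median log2 fold change of the tested members was 0.10, and that of all genes was -0.00. Under the study's stricter criteria, a log2 fold change beyond 1, an adjusted p under 0.05 and a mean above 1 FPKM in a group, 1 member was higher (*Fasn*) and 0 were lower, where 0.558% of all genes were higher and 1.49% lower. No member had a log2 fold change below -1, and the counts of 1 and 0 were the same in all 13 alternative fits, DESeq2 and limma included.

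Groups were also compared without a model, by whether the CPM (counts scaled to a common library size) of the 3 LKO libraries lay outside those of the 3 Loxp libraries. By this measure 10 members lay above and 8 below, where 20.4% of all genes lay above and 20.3% below, and 14 members overlapped. The exact permutation test of 3 against 3 libraries gives no p under 0.1. All 14 called members were among those whose groups did not overlap. The other 4 were *Elovl1*, *Elovl5* and *Fads1* (above) and *Thrsp* (below).

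**Figure D1:**
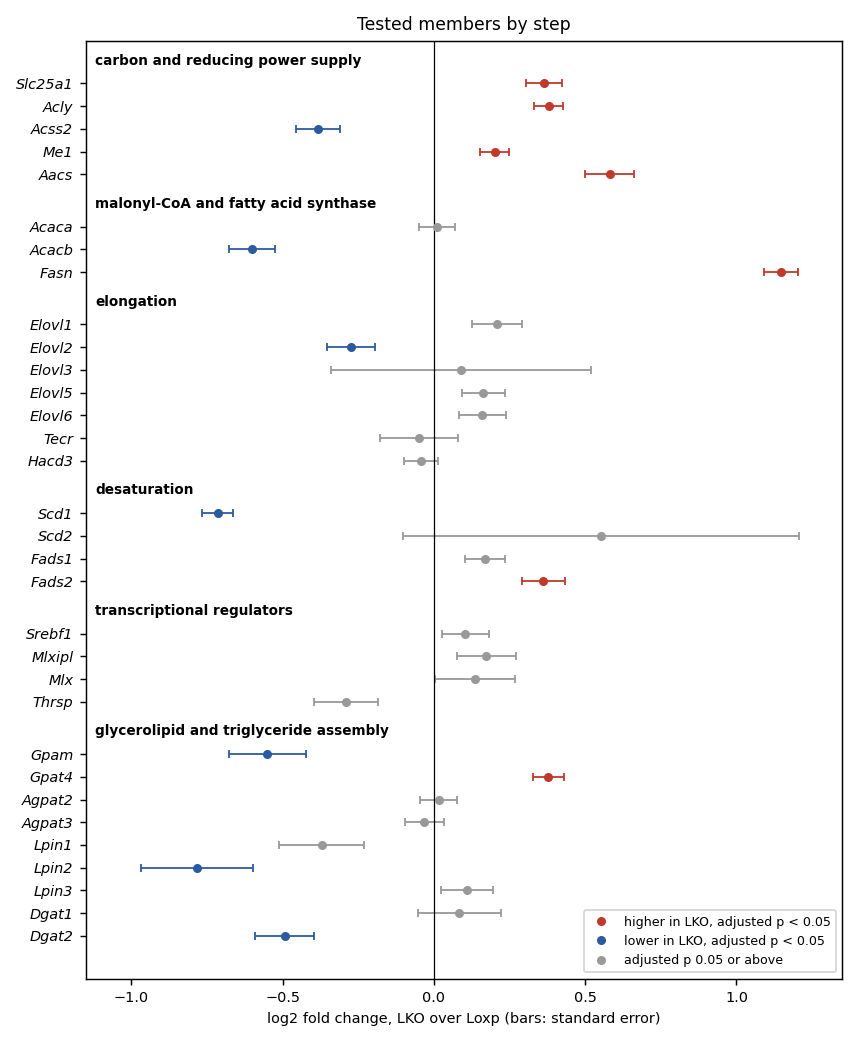
Log2 fold change of the 32 tested members, LKO over Loxp, ordered by step, with bars of 1 standard error. Red points are higher and blue points lower with an adjusted p under 0.05, and grey points did not pass. All 5 supply genes passed and none of the 4 transcriptional regulators did, where 23.1% of all genes tested passed.

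The supply of acetyl-CoA and NADPH was the step at which each member passed the test, 4 higher and 1 lower. Among all genes tested 23.1% passed, and among 7 other supply genes tested 3 passed. *Slc25a1*, the carrier that exports citrate from mitochondria (ENSMUSG00000003528, chr16:17743087-17746083 in GRCm39, the build of all gene positions here), was at 37.9, 40.4 and 40.5 FPKM in Loxp and 50.4, 53.3 and 53.1 FPKM in LKO. It rose 1.29-fold (log2 fold change 0.36, SE 0.06, edgeR adjusted p = 0.00332). *Acly*, ATP citrate lyase, which cleaves that citrate (ENSMUSG00000020917, chr11:100367179-100418826), was at 28.3, 28.8 and 29.0 FPKM in Loxp and 37.9, 38.8 and 38.2 FPKM in LKO. Its rise was almost the same as that of the carrier, 1.30-fold (log2 fold change 0.38, SE 0.05, edgeR adjusted p = 0.00118).

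*Aacs*, acetoacetyl-CoA synthetase, which returns ketone body carbon to lipid synthesis in the cytosol (ENSMUSG00000029482, chr5:125552878-125594474), showed the largest change of the 5 supply members. It was at 17.0, 20.4 and 18.4 FPKM in Loxp and 27.5, 29.1 and 29.0 FPKM in LKO, with a log2 fold change of 0.58 (SE 0.08, edgeR adjusted p = 0.0018). *Me1*, the cytosolic malic enzyme that yields NADPH (ENSMUSG00000032418, chr9:86463424-86578006), showed the smallest called change of all members. The gene was at 45.4, 43.3 and 42.9 FPKM in Loxp and 52.2, 51.5 and 51.3 FPKM in LKO, with a log2 fold change of 0.20 (SE 0.05, edgeR adjusted p = 0.0187). All 3 LKO libraries lay above all 3 Loxp libraries, but the call was lost without Loxp 3 (edgeR adjusted p = 0.0658), LKO 1 (0.0702) or LKO 2 (0.0783).

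*Acss2*, the acetyl-CoA synthetase that activates free acetate (ENSMUSG00000027605, chr2:155359868-155427644), went the other way. It was at 2.96, 2.78 and 2.89 FPKM in Loxp and at 2.14, 2.35 and 2.30 FPKM in LKO, a log2 fold change of -0.38 (SE 0.07, edgeR adjusted p = 0.00692). The gene overlaps *Gss*, whose reads came to 599% of those of *Acss2* and whose log2 fold change was 0.10 (edgeR adjusted p = 0.592). The strand setting of the counting is not given in the sources used here, so the value of *Acss2* is uncertain. Per length, *Acly* made up 90.5% to 91.2% of the summed *Acly* and *Acss2* level in Loxp and 94.3% to 94.7% in LKO, so *Acly* was the dominant transcript of this pair in every library.

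The next step, acetyl-CoA carboxylase and fatty acid synthase, held 1 higher member, 1 lower member and 1 that did not pass. Among all genes tested 11.5% were higher and 11.6% lower. *Fasn*, fatty acid synthase (ENSMUSG00000025153, chr11:120696672-120715373), was at 11.2, 10.1 and 11.1 FPKM in Loxp and at 24.2, 25.1 and 24.3 FPKM in LKO. The means were 10.8 ± 0.605 and 24.5 ± 0.487 FPKM (SD, n = 3 each), so the distance between groups was many times the spread within them. *Fasn* rose 2.21-fold (log2 fold change 1.15, SE 0.06, edgeR adjusted p = 9.34e-06), and the log2 fold change stayed between 1.11 and 1.17 when any library was left out.

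Both carboxylases make malonyl-CoA, *Acaca* as the cytosolic form that feeds fatty acid synthase and *Acacb* as the form at the outer mitochondrial membrane, known for its part in restraining fatty acid oxidation. *Acacb* (ENSMUSG00000042010, chr5:114284596-114388822) was at 4.51, 4.19 and 4.08 FPKM in Loxp and at 2.78, 2.75 and 3.12 FPKM in LKO. This was a fall to 0.660 of the Loxp level (log2 fold change -0.60, SE 0.08, edgeR adjusted p = 0.00107), with the groups well apart. *Acaca* was at 3.15 to 3.31 FPKM in Loxp and 3.29 to 3.40 FPKM in LKO, and its log2 fold change of 0.01 (SE 0.06) did not pass (edgeR adjusted p = 0.919). *Acaca* made up 42.3%, 42.9% and 44.0% of their summed FPKM in the Loxp libraries and 55.0%, 54.5% and 51.3% in the LKO libraries. Which of the pair came first in Loxp depended on division by length. On counts not divided by length *Acaca* was the larger in every library, with 53.3% to 55.0% in Loxp and 62.1% to 65.5% in LKO.

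**Figure D2:**
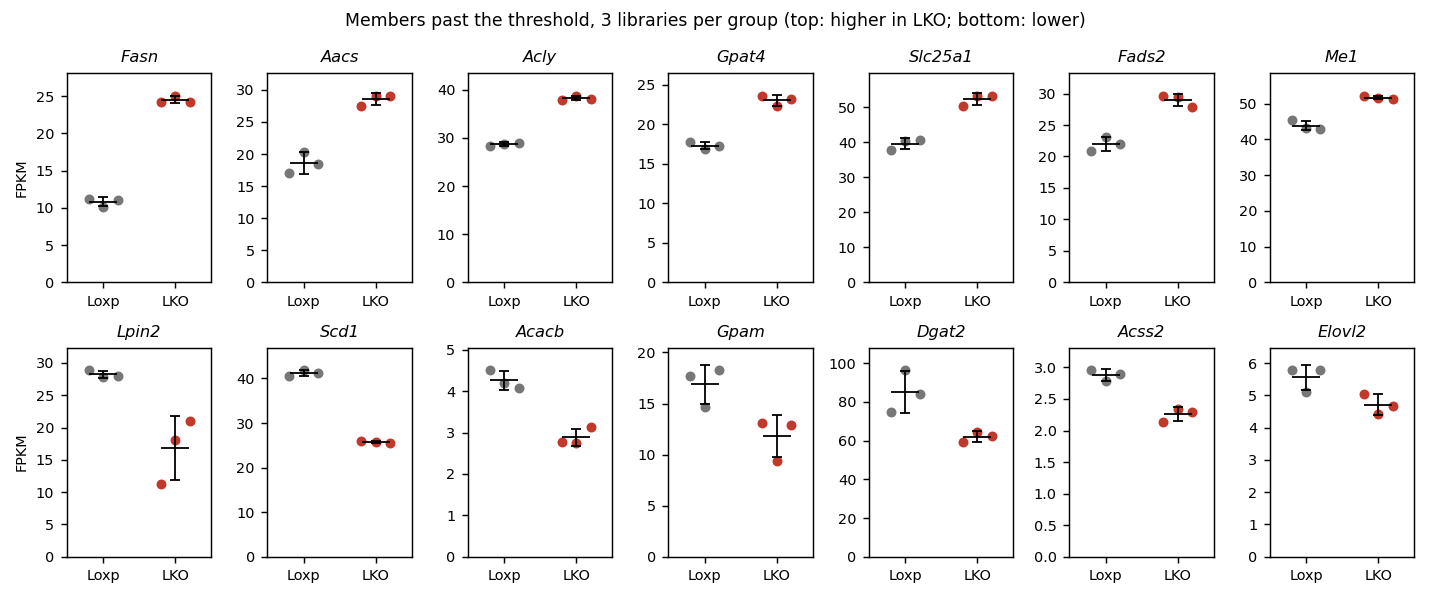
FPKM of the 14 called members in each library (points), with the mean and SD of the 3 libraries of a group (bars), each panel starting at 0. Loxp is grey and LKO red, and the groups do not overlap in any panel, from *Fasn* (10.8 to 24.5 FPKM) to *Elovl2* (5.55 to 4.71 FPKM).

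Promoter sequence was set beside these opposite changes. RefSeq promoter windows (GRCm38.p6) matched 27 of the 34 members, with 37 windows in all, and no entry matched *Dgat1*, *Dgat2*, *Elovl3*, *Fads1*, *Gpat4*, *Scd1* or *Scd2*. Each window held the 250 bases before an annotated start and was searched on both strands for the E-box CACGTG, the CCAAT box CCAAT, the GC box GGGCGG and the sterol regulatory element-like TCACNCCAC. E-boxes are bound by factors such as USF and the ChREBP family, CCAAT boxes by NF-Y, GC boxes by Sp1 and sterol regulatory elements by SREBPs. The motifs and the windows shown were chosen after the values and matches had been seen. *Fasn* is shown as the member with the largest rise, *Slc25a1* as a higher member with 3 of the 4 motifs, and *Acacb* as the member that fell at the step where *Fasn* rose. Letters in capitals are motif matches, and the last base precedes the start.

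Fasn, chr11:120824548-120824797, minus strand: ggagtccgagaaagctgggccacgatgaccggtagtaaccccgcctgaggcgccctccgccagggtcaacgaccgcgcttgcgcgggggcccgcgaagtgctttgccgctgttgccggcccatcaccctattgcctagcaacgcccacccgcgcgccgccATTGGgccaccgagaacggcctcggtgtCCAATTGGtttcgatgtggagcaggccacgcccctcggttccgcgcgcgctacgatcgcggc
Slc25a1, chr16:17928220-17928469, minus strand: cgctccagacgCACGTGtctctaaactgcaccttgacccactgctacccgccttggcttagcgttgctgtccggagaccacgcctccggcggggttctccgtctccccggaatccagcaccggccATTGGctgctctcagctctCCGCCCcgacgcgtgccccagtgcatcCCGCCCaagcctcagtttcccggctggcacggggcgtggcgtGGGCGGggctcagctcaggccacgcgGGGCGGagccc
Acacb, chr5:114165268-114165517, plus strand: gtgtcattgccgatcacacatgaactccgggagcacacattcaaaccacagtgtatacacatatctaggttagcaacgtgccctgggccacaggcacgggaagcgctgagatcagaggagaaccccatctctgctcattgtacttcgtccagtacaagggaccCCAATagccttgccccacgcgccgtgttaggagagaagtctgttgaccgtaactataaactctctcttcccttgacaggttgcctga

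The *Fasn* window held CCAAT matches that began 90, 62 and 59 bases before the start, the last 2 overlapping on opposite strands. The *Acacb* window held 1, at 87 bases. In the *Slc25a1* window the E-box began at 239 bases, the CCAAT box at 125 bases and the 4 GC boxes at 106, 79, 37 and 11 bases. Members were counted by a match in any of their windows, so those with more windows had more chances. Of the 6 higher members with a window (7 windows), 3 held a CCAAT box, 4 a GC box and 1 an E-box. Of the 5 lower members with a window (9 windows), 4 held a CCAAT box, 4 a GC box and 1 an E-box. None of these 11 members held the sterol regulatory element-like letters, and *Mlxipl*, not called, was the member that did. Across the 37 member windows, 45.9% held a CCAAT box, 51.4% a GC box, 16.2% an E-box and 2.70% the sterol regulatory element-like letters, where the shares of all 32851 windows were 33.8%, 32.7%, 6.02% and 1.05%. That background holds windows of all genes, expressed or not, and was not matched to the levels of the members. A match describes letters, not a bound site, and which annotated start these cells use was not tested.

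Elongation had few calls. Of its 7 members, 1 was lower (14.3% called, beside 23.1% of all genes) and 6 did not pass in edgeR, among which *Elovl1* and *Elovl5* had an unadjusted p under 0.05. The median absolute log2 fold change of the step was 0.16, and that of all genes was 0.21. *Elovl2*, which lengthens polyunsaturated chains (ENSMUSG00000021364, chr13:41335857-41373881), was at 5.78, 5.10 and 5.79 FPKM in Loxp and at 5.05, 4.41 and 4.66 FPKM in LKO. The highest LKO library lay just under the lowest Loxp library, and the log2 fold change was -0.27 (SE 0.08, edgeR adjusted p = 0.0415). This call was the least stable of the 14. It was lost in 9 of 13 alternatives, those with DESeq2, with every gene of at least 1 count, with limma at both pseudocounts, and without Loxp 1, Loxp 3, LKO 1, LKO 2 or LKO 3, where the adjusted p ran from 0.0544 to 0.141. Its share of the summed FPKM of 5 elongases was 9.72% to 10.5% in Loxp and 7.49% to 7.88% in LKO.

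*Elovl5*, which also acts on polyunsaturated chains, was the most abundant elongase per length, at 23.3 to 26.4 FPKM in Loxp and 27.0 to 30.5 FPKM in LKO (log2 fold change 0.16, SE 0.07, edgeR adjusted p = 0.137). *Elovl1*, an elongase of very long saturated chains, was at 17.5 to 18.7 FPKM in Loxp and 20.1 to 24.0 FPKM in LKO, with a log2 fold change of 0.21 that did not pass (edgeR adjusted p = 0.105). *Elovl6*, which takes palmitate to stearate, had overlapping groups of 5.04 to 6.08 and 6.03 to 6.58 FPKM and a log2 fold change of 0.16 (edgeR adjusted p = 0.178). *Elovl3* stayed below 1 FPKM in each library and was too sparse to place (log2 fold change 0.09, SE 0.43). *Hacd3*, a dehydratase of the elongation cycle and the most abundant member of this step, was at 42.1 to 44.2 FPKM in Loxp and 41.9 to 44.2 FPKM in LKO. The log2 fold changes of *Hacd3* and of *Tecr*, the reductase that ends the cycle, were -0.04 (SE 0.06) and -0.05 (SE 0.13).

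Desaturation held 1 lower and 1 higher member of 4 tested, where 11.6% of all genes were lower and 11.5% higher. *Scd1*, the delta-9 desaturase that turns stearate into oleate (ENSMUSG00000037071, chr19:44382894-44396318), was at 40.6, 41.9 and 41.3 FPKM in Loxp and at 26.0, 25.8 and 25.5 FPKM in LKO. It fell to 0.609 of the Loxp level (log2 fold change -0.71, SE 0.05, edgeR adjusted p = 8.34e-05), the smallest adjusted p among the lower members, and both groups were tight. *Fads2*, the delta-6 desaturase of polyunsaturated chains (ENSMUSG00000024665, chr19:10040129-10079110), was at 20.9, 23.1 and 22.0 FPKM in Loxp and at 29.7, 29.4 and 27.8 FPKM in LKO. It rose 1.28-fold (log2 fold change 0.36, SE 0.07, edgeR adjusted p = 0.00821). Of the 4 desaturase members, *Scd1* had the highest FPKM in each Loxp library and *Fads2* in each LKO library. On normalized CPM, which is not divided by length, *Scd1* remained above *Fads2* in LKO, at means of 139.6 and 102.6 CPM.

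The neighbour of *Fads2* on chromosome 19, *Fads1*, the delta-5 desaturase, was at 12.1 to 13.3 FPKM in Loxp and 13.7 to 15.0 FPKM in LKO. Its groups did not overlap, but its log2 fold change of 0.17 (SE 0.07) did not pass (edgeR adjusted p = 0.106). *Scd2*, a delta-9 desaturase beside *Scd1*, ranged from 0.0814 to 0.603 FPKM in Loxp and from 0.182 to 0.599 FPKM in LKO, and no direction could be read at this depth (log2 fold change 0.55, SE 0.65, edgeR adjusted p = 0.594). Per length, *Scd1* made up 97.7% or more of the *Scd1* and *Scd2* pair in every library.

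None of the 4 transcriptional regulators passed the test in edgeR or DESeq2, where edgeR called 23.1% of all genes. With 4 genes this count is not read as a trait of the step, and 3 of 19 other regulators tested passed. *Thrsp*, 1 of the 4, had an unadjusted p under 0.05 in edgeR. *Mlxipl*, the most abundant of the 4 per length, was at 16.2, 16.4 and 18.4 FPKM in Loxp and at 18.9, 17.4 and 22.7 FPKM in LKO, with a log2 fold change of 0.17 (SE 0.10, edgeR adjusted p = 0.24). *Srebf1* had a log2 fold change of 0.10 (SE 0.08, edgeR adjusted p = 0.388), and part of its span overlaps *Rai1*, whose reads came to 41.0% of its own. *Mlx*, the partner of ChREBP, was at 0.14 (SE 0.13) on the log2 scale. *Thrsp*, the thyroid hormone-responsive protein linked to lipogenesis, was at 4.19 to 4.82 FPKM in Loxp and 3.55 to 3.90 FPKM in LKO. Its log2 fold change of -0.29 (SE 0.11) missed the threshold (edgeR adjusted p = 0.0846). Messenger RNA says nothing of the cleavage of SREBP-1c or the activity of ChREBP.

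Assembly of glycerolipids began with another pair that moved apart. Glycerol-3-phosphate acyltransferase adds the first chain, and *Gpam* encodes the mitochondrial form and *Gpat4* a form of the endoplasmic reticulum. *Gpam* (ENSMUSG00000024978, chr19:55055700-55115670) was at 17.6, 14.7 and 18.3 FPKM in Loxp and at 13.1, 9.41 and 12.9 FPKM in LKO. The gene fell to 0.683 of the Loxp level (log2 fold change -0.55, SE 0.13, edgeR adjusted p = 0.0167), a call that was lost without Loxp 3 (edgeR adjusted p = 0.0572). *Gpat4* (ENSMUSG00000031545, chr8:23661281-23698362) was at 17.7, 16.9 and 17.3 FPKM in Loxp and at 23.6, 22.3 and 23.2 FPKM in LKO. It rose 1.30-fold (log2 fold change 0.38, SE 0.05, edgeR adjusted p = 0.0015) and passed in every alternative. *Gpam* made up 46.5% to 51.4% of the summed FPKM of the pair in Loxp and 29.7% to 35.8% in LKO, and on average 54.2% and 38.3% of the counts not divided by length.

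The second acyl chain is added by AGPAT enzymes, and neither member moved past the test. *Agpat2* was at 29.5 to 30.4 FPKM in Loxp and 30.5 to 31.5 FPKM in LKO, and *Agpat3* at 14.7 to 17.5 and 16.2 to 16.5 FPKM. Their log2 fold changes were 0.02 (SE 0.06) and -0.03 (SE 0.07). *Egfl7*, which overlaps *Agpat2*, had 15.0% of its reads.

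Lipins remove the phosphate and yield diacylglycerol. *Lpin2*, the most abundant lipin (ENSMUSG00000024052, chr17:71489555-71556812), was at 28.9, 27.8 and 28.0 FPKM in Loxp and at 11.3, 18.0 and 21.1 FPKM in LKO. The LKO libraries differed among themselves by far more than the Loxp libraries, with SDs of 4.99 and 0.591 FPKM, and LKO 1 was the lowest. *Lpin2* fell to 0.581 of the Loxp level (log2 fold change -0.78, SE 0.18, edgeR adjusted p = 0.0177). This was the largest fall among the members with all 6 libraries, but without LKO 1 the log2 fold change was -0.56 (edgeR adjusted p = 0.00346), behind those of *Scd1* (-0.72), *Gpam* (-0.63) and *Acacb* (-0.57). *Lpin1* was at 1.59, 1.05 and 1.43 FPKM in Loxp and at 1.10, 1.10 and 1.02 FPKM in LKO, a log2 fold change of -0.37 (SE 0.14) that did not pass (edgeR adjusted p = 0.0949). It passed without Loxp 2, the low control library (log2 fold change -0.51, edgeR adjusted p = 0.0139). *Lpin3* was at 7.43 to 7.98 FPKM in Loxp and 7.83 to 9.32 FPKM in LKO (log2 fold change 0.11, edgeR adjusted p = 0.412). *Lpin2* made up 76.2%, 75.6% and 74.8% of the summed lipin FPKM in Loxp and 52.1%, 64.9% and 70.4% in LKO.

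The last step joins the third chain to diacylglycerol. *Dgat2*, the most abundant member of the whole set per length (ENSMUSG00000030747, chr7:98802865-98831926), was at 74.7, 96.4 and 83.9 FPKM in Loxp and at 59.0, 64.6 and 62.3 FPKM in LKO. It fell to 0.711 of the Loxp level (log2 fold change -0.49, SE 0.10, edgeR adjusted p = 0.00852). *Dgat1*, the other enzyme of this step, was at 2.74 to 3.17 FPKM in Loxp and 2.78 to 3.88 FPKM in LKO, with overlapping groups and a log2 fold change of 0.08 (SE 0.14). *Dgat1* made up 3.18% to 3.53% of the pair in Loxp and 4.13% to 5.87% in LKO. *Mogat1*, an acyltransferase of monoacylglycerol, and *Pnpla3*, a lipid droplet protein, were too low to test, with at most 8 and 6 reads in a library. In all, glycerolipid assembly had 3 lower and 1 higher of 9 members tested, and supply had 4 higher and 1 lower of 5. The same rule called 11.5% of all genes higher and 11.6% lower. Among other genes of these steps, assembly had 2 lower and 2 higher of 17 tested, and supply 1 lower and 2 higher of 7. A difference between steps was not tested.

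**Figure D3:**
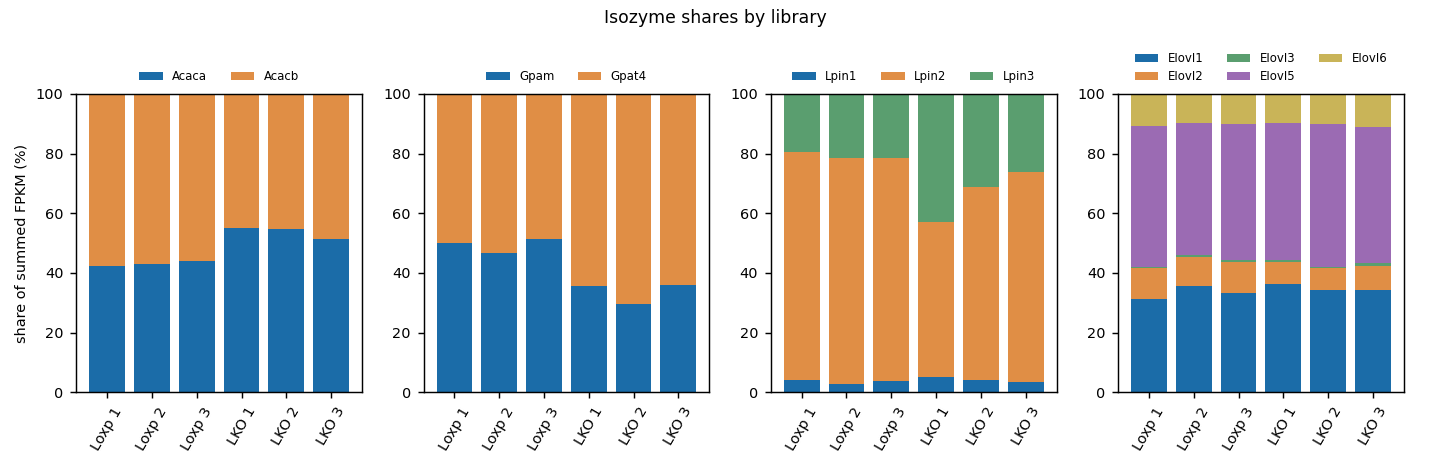
Share of the summed FPKM of an isozyme family, in percent, in each of the 6 libraries. Families hold members only. *Gpat3* (means of 9.45 FPKM in Loxp and 10.0 FPKM in LKO) and *Elovl7* (5.14 and 4.67 FPKM) are among the isozymes left out. *Acaca* passes 50% of the summed FPKM of its pair in the 3 LKO libraries and not in Loxp, *Gpam* drops from 46.5% or more to 35.8% or less, *Lpin2* is lowest in LKO 1 (52.1%), and *Elovl2* is lower in LKO.

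Isozyme families were made of members only, so a share is not that of every isozyme of a step. Of 14 isozyme shares computed in 8 families, 7 did not overlap between groups, those of *Acaca*, *Acly*, *Elovl2*, *Gpam*, *Lpin2*, *Lpin3* and *Dgat1*. No background of shares was computed, and for single genes 20.4% of all lay above and 20.3% below. Shares of a family depend on each other, so these are not separate shifts. *Acaca*, *Lpin3* and *Dgat1* themselves did not pass (log2 fold changes 0.01, 0.11 and 0.08), while *Acacb*, *Lpin2* and *Dgat2* were lower. The exact two-sided permutation test gave each of the 7 shares p = 0.1, the smallest value that 3 against 3 libraries allow, and an adjusted p of 0.2 over the 14 shares. The mean share of *Acaca* went from 43.1% ± 0.859 to 53.6% ± 2.02 (SD, n = 3 each) and that of *Gpam* from 49.3% ± 2.52 to 33.7% ± 3.50. *Lpin2* went from 75.6% ± 0.696 to 62.5% ± 9.43. Without LKO 1 the difference in the *Lpin2* share was -7.86 percentage points, and with all libraries -13.1. The same 7 shares did not overlap on counts not divided by length, where the differences were -7.50 points for *Lpin2*, 6.32 for *Lpin3* (12.5 on FPKM) and 2.72 for *Dgat1* (1.54 on FPKM).

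A list of 65 other genes of the same pathway was read from the same fit. Of these, 58 were tested, 6 were higher, 6 were lower and 46 did not pass, with a median log2 fold change of -0.00. The share called was 20.7%, beside 23.1% of all genes. *Pgd* and *Idh1*, which yield NADPH in the cytosol, were higher (log2 fold changes 0.69 and 0.48, edgeR adjusted p = 0.000346 and 0.00258). *G6pdx*, which also yields NADPH there, did not pass (-0.01, edgeR adjusted p = 0.932). *Mdh1*, the cytosolic malate dehydrogenase, was lower (-0.39, edgeR adjusted p = 0.00498). *Insig1* and *Insig2*, both known to retain SREBPs in the endoplasmic reticulum, moved apart, to log2 fold changes of 0.93 (SE 0.11, edgeR adjusted p = 0.000648) and -0.56 (SE 0.07, edgeR adjusted p = 0.00115). *Insig1* was at 9.37, 7.21 and 8.93 FPKM in Loxp and at 16.6, 17.7 and 15.3 FPKM in LKO.

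*Agpat1*, a further enzyme of the second acylation, was higher (0.70, edgeR adjusted p = 0.00134) and *Agpat5* lower (-0.27, edgeR adjusted p = 0.0287). *Pcyt2*, of phosphatidylethanolamine synthesis, was higher (0.30, edgeR adjusted p = 0.00908). *Mid1ip1*, a partner of acetyl-CoA carboxylase known to promote its polymerization, was at 9.98, 9.89 and 9.42 FPKM in Loxp and at 13.2, 37.8 and 35.4 FPKM in LKO. All LKO libraries were above Loxp, LKO 1 by far the least, and the log2 fold change was 1.53 (SE 0.33, edgeR adjusted p = 0.0126). *Sp1* was lower (-0.31, edgeR adjusted p = 0.0372). Of the 6 lower genes, 2 remained when any of Loxp 1, Loxp 2, LKO 1, LKO 2 or LKO 3 was left out, and *Insig2* and *Mdh1* were those that passed throughout.

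**Figure D4:**
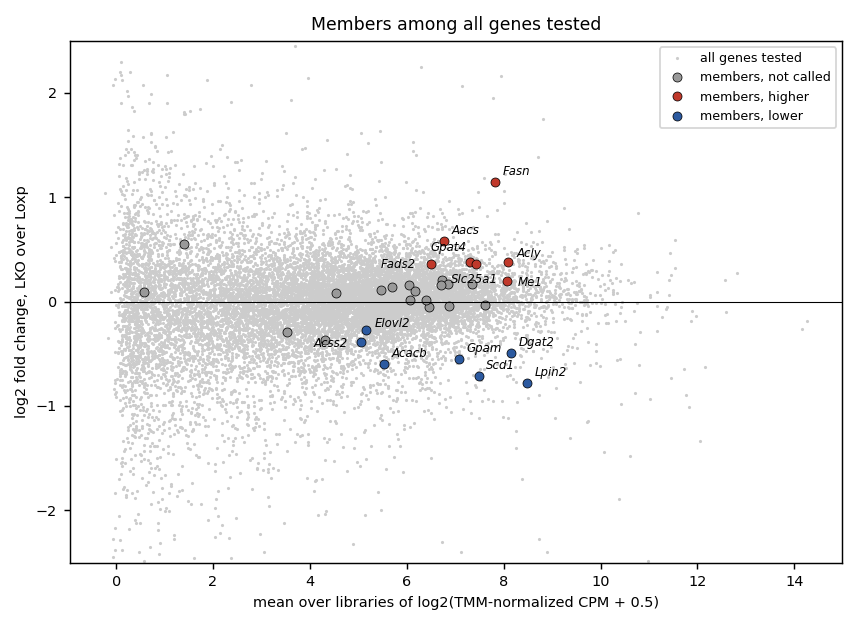
Log2 fold change against mean level (log2 of normalized CPM + 0.5) for all 14151 genes tested (light grey) and the members (circles, red higher, blue lower, grey not called). *Fasn* is the member beyond 1, the other called members lie within 1 of 0, and 43 genes beyond 2.5 are not drawn.

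Of the 14 called members, 11 passed the threshold in all 13 alternative fits, and none of the 14 changed direction in any of them. The 11 were *Fasn*, *Aacs*, *Acly*, *Gpat4*, *Slc25a1*, *Fads2*, *Lpin2*, *Scd1*, *Acacb*, *Dgat2* and *Acss2*.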

How the data were processed

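Primary hepatocytes of both genotypes were treated with 0.1 mM palmitate for 24 h, and RNA libraries were sequenced as paired-end reads. The submitters' processing notes name fastp, HISAT2, StringTie, edgeR and the build GRCm39. The authors deposited 1 table of 57180 genes with an unnormalized read count per gene and library. The same table holds the authors' FPKM values, which rescale each count by a fixed gene length and the library's counted reads (implied lengths of 9596 genes differed by at most 0.000874%). All 12 value columns were used. The annotation, counting tool and strand setting are not given in the sources used here.

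Counts were filtered with filterByExpr (minimum count 10), scaled with TMM factors and fitted with edgeR 4.0.16 in R 4.3.3, whose quasi-likelihood test (two-sided) was adjusted by Benjamini-Hochberg over 14151 genes. The threshold was an adjusted p of 0.05, and the standard error of a fold change was derived from the F statistic. Fold changes use TMM-normalized counts, while FPKM values carry no TMM factor (0.973 to 1.02), so overlap of groups was judged on normalized CPM. Isozyme shares of summed FPKM were compared by an exact permutation test over libraries (scipy 1.17.1). Alternatives were upper-quartile factors, DESeq2 1.42.0, no filter beyond 1 count per gene, a filter of 10 counts in each library, limma 3.58.1 on log2(FPKM + 1) and log2(FPKM + 0.1), the replicate number as a block, and each library left out in turn. The shares were also taken from counts not divided by length. One CPM corresponded to 14.3 to 18.5 reads. Pairs of replicates differed beyond counting noise (chi-square per degree of freedom 7.77 to 16.7), so no library was treated as a copy of another. This statistic cannot tell whether the libraries came from separate mice. The fit was tested on simulated counts.

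The members, gene lists and tests were chosen with earlier results of these data known. Named are all members, *Sting1*, markers, and up to 10 other pathway genes with the smallest adjusted p. *G6pdx*, which did not pass, is named beside *Pgd* and *Idh1*. *Gpat3* and *Elovl7*, which did not pass, are named as isozymes left out of the shares. *Gss*, *Rai1* and *Egfl7* are named as genes that overlap a member. Results for the marker *Tf* are not reported here. Figures were drawn with matplotlib 3.10.9.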

Additional observations from a re-analysis of the deposited data

How the results depend on the processing

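Members called lower numbered 5 to 8 and higher 6 to 7 over the 13 alternatives, beside 7 and 7. The calls that changed were those of *Elovl2*, *Me1*, *Gpam* and *Lpin1*, as given with each gene, and the cause was not tested. With limma on log2(FPKM + 1), 93 genes of the whole table were lower and 38 higher by the 3 criteria, beside 211 and 79 in edgeR, a scale on which changes of low genes are understated. *Agpat3* (-0.03) became 0.00661 and 0.00717 with limma at pseudocounts of 1 and 0.1. Leaving out 1 library gave 1052 to 1515 lower and 922 to 1510 higher genes in the whole table, beside 1641 and 1633. The lowest counts came without LKO 2 (1052 and 922), and without LKO 1 there were 1088 and 1058. The member median ran from 0.0506 (without Loxp 1; 0.0533 without LKO 3) to 0.116, beside 0.10, and the lower pathway genes outside the members from 2 to 5, beside 6. Sign changes when 1 library was left out concerned members that did not pass, *Agpat2* (-0.00826 to 0.0397), *Agpat3* (-0.0886 to 0.0198), *Tecr* (-0.193 to 0.0769), *Acaca* (-0.000862 to 0.0288), *Elovl3* (-0.482 to 0.418) and *Dgat1* (-0.0745 to 0.166). Among share differences, in percentage points, they concerned *Elovl3* (-0.208 to 0.122), *Elovl6* (-0.167 to 0.491) and *Agpat2* (-0.0425 to 1.98), whose groups overlap.

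The replicate numbers are shared by both groups, but the deviations of same-numbered libraries correlated at 0.132, 0.0729 and 0.0256 only, and Loxp 3 correlated best with LKO 2, so the numbers were not taken as a pairing. With the replicate number as a block, 7 members were lower and 7 higher, with 1605 lower and 1630 higher genes in the whole table and 5 lower and 6 higher among the other pathway genes, and 201 lower and 79 higher by the 3 criteria. With groups of 3 libraries, changes as small as that of *Me1* stand at the limit of what the depth and spread resolve, and *Scd2*, *Elovl3*, *Mogat1* and *Pnpla3* were too low to place.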
